A study of Homo sapiens with 16 samples.

Results

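The 10 genes described here encode CIITA and 9 proteins of the MHC class II pathway: CD74, HLA-DRA, HLA-DRB1, HLA-DPA1, HLA-DPB1, HLA-DQB1, HLA-DMA, HLA-DMB and HLA-DOA. They were taken by symbol from the 34228 genes of the count table, and all 10 were found. RNA-Seq had been performed on 451Lu-R and 1205Lu-R, derivatives of the human melanoma lines 451Lu and 1205Lu that had been made resistant to BRAF inhibitor (BRAFi) by months of culture in rising doses of PLX4032 (vemurafenib). Per the study's methods, 5 μM PLX4032 in the culture medium maintained the resistance, and whether it was present in the DMSO and corin cultures of this experiment is not given in the sources used here. The 4 groups were 451Lu-R with DMSO, 451Lu-R with 2.5 μM corin, 1205Lu-R with DMSO and 1205Lu-R with 2.5 μM corin, each treated for 24 hours and each with 2 libraries of poly(A) RNA. Corin is a bivalent inhibitor of the CoREST repressor complex that blocks both its deacetylases (HDAC1 and HDAC2) and its demethylase (LSD1, the product of KDM1A), and the comparisons ask what this inhibition does to transcript levels in each line.

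MHC class II molecules present peptides from the endosomal route to CD4+ T cells. Each is a pair of an alpha and a beta chain (HLA-DR, HLA-DQ or HLA-DP) that assembles on the invariant chain CD74. HLA-DM, a pair of HLA-DMA and HLA-DMB, then exchanges the invariant chain fragment for peptide, and HLA-DO, which needs HLA-DOA, restrains HLA-DM. Transcription of these genes is classically controlled by CIITA, a coactivator that binds no DNA itself but is recruited to the X and Y boxes of class II promoters through RFX, CREB and NF-Y proteins. Professional antigen-presenting cells make CIITA constitutively, whereas most other cells, melanoma cells among them, make it in response to IFN-γ, although some melanomas express class II without it.

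X and Y boxes are the promoter elements through which CIITA is known to act, so the stretches of the 4 members whose promoters held letters of both are printed here. They were read from RefSeq promoters on GRCh38.p14, which run from 250 bases before to 50 bases after a gene's start, and 8 of the 10 members had an entry in that table. All 4 genes lie on the minus strand and all stretches lie upstream of the start. Capitals mark matches to the X box letters AGNNACNGATG, to the Y box letters GATTGG, or to the Y box on the opposite strand, CCAATC.
HLA-DRB1: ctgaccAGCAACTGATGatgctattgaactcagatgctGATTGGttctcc
HLA-DQB1: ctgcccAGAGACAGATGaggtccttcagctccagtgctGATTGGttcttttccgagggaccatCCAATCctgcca
HLA-DMA: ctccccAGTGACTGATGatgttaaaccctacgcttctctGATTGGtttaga
HLA-DMB: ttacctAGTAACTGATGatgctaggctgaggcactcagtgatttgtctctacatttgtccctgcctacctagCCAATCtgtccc

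These stretches span chr6:32589884-32589933 for HLA-DRB1, chr6:32666710-32666784 for HLA-DQB1, chr6:32953166-32953216 for HLA-DMA and chr6:32941039-32941122 for HLA-DMB. Between the X and the Y letters lay 21 bases in HLA-DRB1 and HLA-DQB1 and 22 bases in HLA-DMA. In HLA-DMB the Y letters lay on the opposite strand. The letters were chosen after these promoters had been read, and both strands were searched. X letters were in 0.817% of the 35116 promoters of the table and in the promoters of 4 members, and Y letters were in 15.1% and in the promoters of 6 members. X letters followed on the same strand by Y letters 10 to 40 bases on were in 5 promoters (0.0142%), those of HLA-DRB1, HLA-DQB1, HLA-DMA, HLA-DRB5 and CLEC12A, the last named after the search. A match is a description of the letters and not a measured binding site.

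By the GENCODE 44 annotation of GRCh38, CIITA lies at chr16:10866222-10943021 on the plus strand and CD74 at chr5:150401637-150412969 on the minus strand. The 8 HLA genes lie on chromosome 6 between 32439878, the start of HLA-DRA, and 33089696, the end of HLA-DPB1. Counts here are salmon's estimated read counts summed per gene, and levels are given as CPM, the counts per 1000000 counts of the library. The 8 libraries held 9516687 to 11797788 counts each. HLA-DPA1 overlaps HLA-DPB1 on the opposite strand, HLA-DQB1 overlaps HLA-DQB1-AS1, CIITA overlaps DEXI and HLA-DMA overlaps BRD2. The strand setting of the counting is not given in the sources used here, so reads from these overlaps may not have been told apart. Reads of HLA-DRB1 and HLA-DQB1 can also be shared with close copies or misplaced where a line's alleles differ from the reference, and their counts are less certain than those of HLA-DRA. On the same strand, CIITA overlaps ENSG00000280153, and HLA-DMA and HLA-DMB overlap ENSG00000248993. The estimates were not whole numbers in 7 of the 8 libraries for CIITA, 4 for HLA-DRB1 and for HLA-DPB1, 3 for HLA-DOA, 2 for HLA-DQB1 and 1 for CD74. The assignment of CIITA reads is therefore uncertain as well.

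With corin, transcripts of the 9 class II pathway genes were higher in 451Lu-R, where 41.3% of all genes tested rose and 38.6% fell. Those of CIITA were lower there by edgeR, on 20 against 45 summed counts, a call that was lost with a second test, DESeq2. In 1205Lu-R, HLA-DRA, HLA-DRB1, HLA-DQB1, HLA-DMA and HLA-DMB rose, CIITA did not pass the test, and CD74 stayed at 0 to 3 counts per library. Of all genes tested in 1205Lu-R, 40.4% rose and 37.8% fell. The summed level of the 9 genes other than CIITA was 13.0 and 14.5 CPM in the 451Lu-R DMSO libraries and 103.3 and 100.5 CPM with corin. In 1205Lu-R it was 2.44 and 1.70 CPM with DMSO and 30.0 and 30.9 CPM with corin. The mean of the corin libraries was 7.41 times that of the DMSO libraries in 451Lu-R cells and 14.7 times in 1205Lu-R cells. The groups did not overlap. With DMSO, HLA-DQB1 alone gave a mean of 9.23 of the 13.75 CPM in 451Lu-R, against 0.047 of 2.07 CPM in 1205Lu-R. The ratios of the sums therefore do not rank the lines by the response of the other genes. These are bulk RNA measurements, in which a change in the number of cells that express a gene and a change per cell cannot be told apart.

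**Figure D1:**
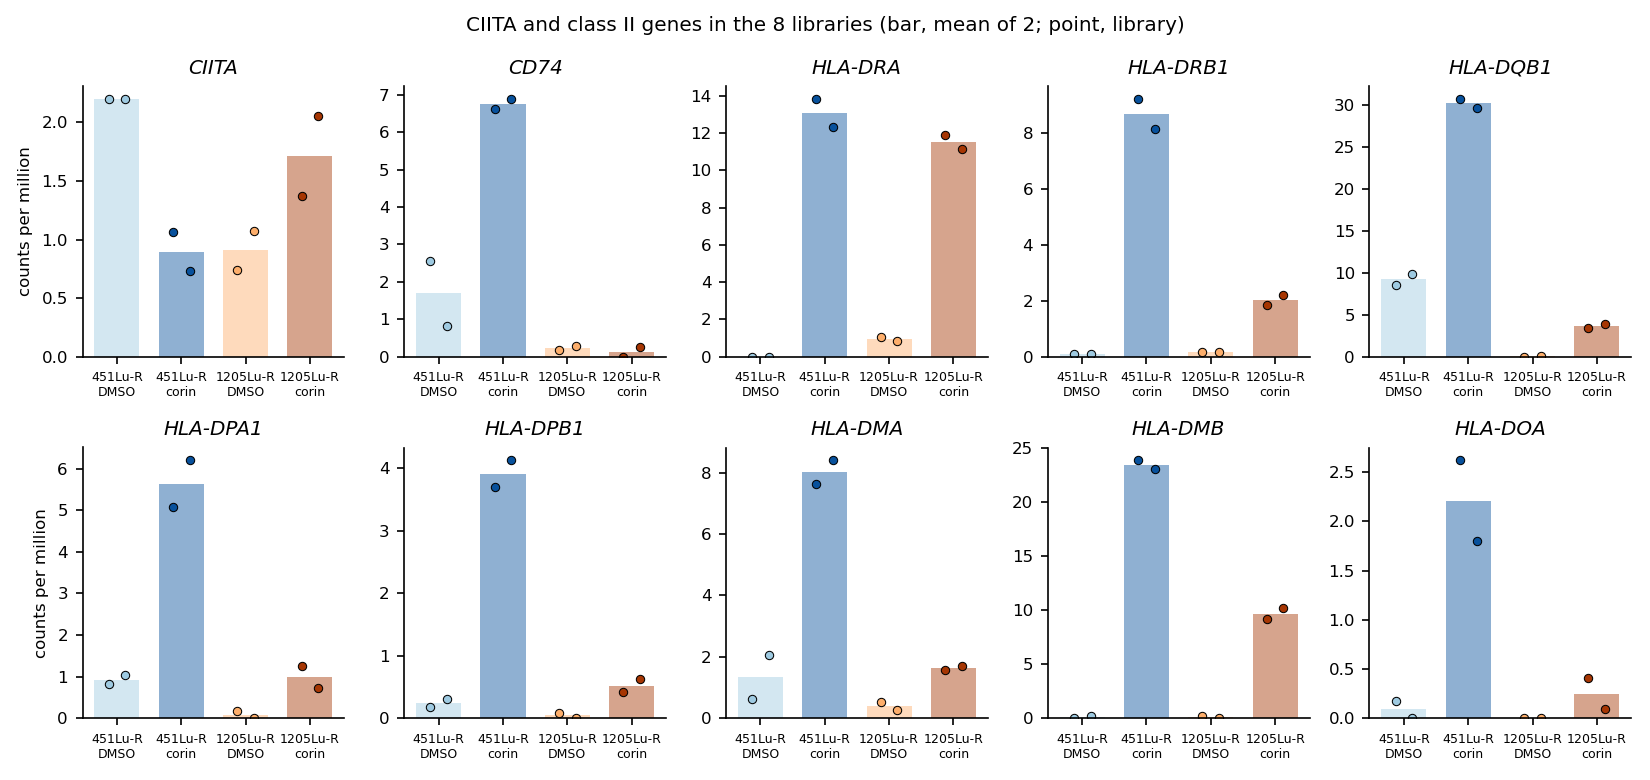
Level of CIITA and the 9 class II pathway genes in CPM (y axis, linear and on its own scale for each gene) in the 4 groups (x axis). Bars are means of 2 libraries and points are the libraries. CIITA is highest with DMSO in 451Lu-R, at 2.20 CPM in both libraries, while all other genes are highest with corin in 451Lu-R, and CD74 in 1205Lu-R lies at or below 0.283 CPM in all 4 libraries.

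CIITA, the coactivator, was measured at 2.20 CPM in both 451Lu-R DMSO libraries and at 1.06 and 0.732 CPM with corin. Both corin libraries lay below both DMSO libraries. The log2 fold change was -1.15 ± 0.38 (SE), with an adjusted p of 0.0103 by the quasi-likelihood test of edgeR, and the ratio of the summed counts (20 against 45) was 0.449, with a 95% counting interval of 0.251 to 0.776. In 1205Lu-R, CIITA was at 0.743 and 1.07 CPM with DMSO and 1.37 and 2.06 CPM with corin. There the corin libraries lay above the DMSO libraries, by 0.91 ± 0.42 on the log2 scale with an adjusted p of 0.0545, which misses the threshold of 0.05. The responses of the 2 lines differed by 2.02 ± 0.60 on the log2 scale, higher in 1205Lu-R, with an edgeR adjusted p of 0.00812.

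These CIITA values rest on 7 to 24 counts per library, and the calls moved with the method. CIITA passed the filter on low counts only through the DMSO libraries in 451Lu-R and only through the corin libraries in 1205Lu-R. The filter thus favoured the direction seen in each line. With DESeq2 the adjusted p was 0.135 in 451Lu-R, 0.280 in 1205Lu-R and 0.0739 for the difference between the lines. Without 451Lu-R DMSO replicate 1 or corin replicate 2 the 451Lu-R adjusted p was 0.0555 and 0.141, and without 1205Lu-R corin replicate 2 that of the difference was 0.0650. With the library size alone as scaling, CIITA passed in 1205Lu-R (0.98, adjusted p 0.0384).

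HLA-DRA, the alpha chain of HLA-DR, had 0 counts in both 451Lu-R DMSO libraries and 163 and 123 counts with corin, or 13.8 and 12.3 CPM. Set against a floor of 3 counts over the DMSO group, it was at least 96.3-fold higher with corin (edgeR adjusted p 1.04e-12), and the exact 95% lower limit of the ratio was 77.9. The 1205Lu-R libraries held 12 and 9 counts of it under DMSO and 113 and 124 under corin, or 1.08 and 0.847 CPM against 11.9 and 11.2 CPM. The log2 fold change was 3.48 ± 0.23 with an adjusted p of 9.26e-12. The lines thus differed most with DMSO, where HLA-DRA was at least 7.14-fold higher in 1205Lu-R by the same floor (exact lower limit 5.32), and reached similar levels with corin. The difference between the lines with corin was -0.28 ± 0.13 on the log2 scale (adjusted p 0.0555), and it passed without the filter on low counts (adjusted p 0.0473) and without 451Lu-R corin replicate 2 (0.0290).

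HLA-DRB1, the main beta chain partner of HLA-DRA, had 1 count in each 451Lu-R DMSO library and about 109 and 81 counts with corin, or 9.23 and 8.15 CPM. The ratio of 190 to 2 summed counts was 96.0, with a wide counting interval of 26.2 to 799. In 1205Lu-R it had 2 counts in each DMSO library and reached 1.84 and 2.22 CPM with corin, a log2 fold change of 3.34 ± 0.55 (adjusted p 9.71e-06). With corin, HLA-DRB1 thus stood 4.45 times lower in 1205Lu-R than in 451Lu-R (interval 3.18 to 6.35), while HLA-DRA stood 1.22 times lower (1.02 to 1.45). The responses of HLA-DRB1 differed by -3.10 ± 1.11 on the log2 scale (adjusted p 0.0249), a call that was lost with DESeq2 (0.0521), without 451Lu-R DMSO replicate 1 (0.0612) or either 1205Lu-R DMSO library (0.0868 and 0.0908), and when HLA-DRB1, HLA-DRB5 and HLA-DRB6 were pooled (-2.01, adjusted p 0.116).

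HLA-DQB1, the beta chain of HLA-DQ, was the only one of the 9 genes with over 5 CPM in any DMSO library. It was at 8.53 and 9.93 CPM with DMSO in 451Lu-R and 30.8 and 29.7 CPM with corin, and its log2 fold change was 1.82 ± 0.11 (adjusted p 4.40e-12). In 1205Lu-R it had 0 and 1 counts with DMSO and 3.46 and 3.90 CPM with corin. The ratio there was 75.9, with a counting interval of 13.2 to 3038 because the denominator was 1 count (edgeR adjusted p 2.42e-08). HLA-DQB1 was the one class II gene whose response was called larger in 1205Lu-R, by 4.08 ± 0.71 on the log2 scale (adjusted p 5.69e-05), and by 6.41 without the 1205Lu-R DMSO library that held its only count. Its level nevertheless stayed lower in 1205Lu-R with corin than in 451Lu-R with DMSO in every library.

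HLA-DPA1 and HLA-DPB1, the chains of HLA-DP, were lower in level. In 451Lu-R, HLA-DPA1 was at 0.826 and 1.03 CPM with DMSO and 5.09 and 6.20 CPM with corin, and its log2 fold change was 2.69 ± 0.30 (adjusted p 1.07e-07). HLA-DPB1 was at 0.188 and 0.309 CPM with DMSO and 3.71 and 4.13 CPM with corin, a change of 4.04 ± 0.44 (adjusted p 7.08e-08). For both genes the corin libraries lay above the DMSO libraries. In 1205Lu-R both were below the filter on low counts, with 2 and 1 summed counts under DMSO and 20 and 11 under corin. In a fit without the filter, HLA-DPA1 rose by 3.14 ± 0.94 on the log2 scale (adjusted p 0.00219) and HLA-DPB1 had an adjusted p of 0.0523.

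HLA-DMB and HLA-DMA, which together form the peptide exchange factor, moved by unequal amounts. HLA-DMB had 0 and 2 counts in the 451Lu-R DMSO libraries and 23.8 and 23.0 CPM with corin, a ratio of 258 with a counting interval of 71.1 to 2138 (adjusted p 8.05e-15). In 1205Lu-R it had 2 and 0 counts with DMSO and 9.14 and 10.2 CPM with corin, a ratio of 99.9 with an interval of 27.3 to 831 (adjusted p 6.65e-12). HLA-DMA was already present with DMSO in 451Lu-R, at 0.642 and 2.07 CPM, and was at 7.63 and 8.40 CPM with corin. Its log2 fold change was 2.69 ± 0.30 (adjusted p 1.12e-07), and without DMSO replicate 1 or 2 it ranged from 2.03 to 3.71. In 1205Lu-R, HLA-DMA was at 0.542 and 0.283 CPM with DMSO and 1.58 and 1.71 CPM with corin, a change of 1.89 ± 0.49 (adjusted p 0.00147).

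HLA-DOA, a chain of the HLA-DM inhibitor HLA-DO, rose from 2 summed counts with DMSO in 451Lu-R to 2.62 and 1.80 CPM with corin. The ratio was 24.8, with a counting interval of 6.50 to 210 (edgeR adjusted p 4.36e-06). In 1205Lu-R it had 0 counts with DMSO and 5 summed counts with corin, for which the exact 95% lower limit of the ratio was 0.916, so that a change was not detectable at this depth (adjusted p 0.159 in the fit without the filter). Its partner HLA-DOB had 1 summed count with DMSO and 18 with corin in 451Lu-R cells, against 0 and 4 in 1205Lu-R cells.

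CD74, the invariant chain, had the largest ratio between the lines with corin among the 10 members. In 451Lu-R it was at 2.57 and 0.828 CPM with DMSO and 6.61 and 6.89 CPM with corin, and its log2 fold change was 2.04 ± 0.30 (adjusted p 4.55e-06). The 1205Lu-R libraries held 2 and 3 counts of it under DMSO and 0 and 3 under corin, 1.67 times fewer with corin (counting interval 0.325 to 10.7), so that no direction was detectable. With corin, CD74 was thus 49.3 times lower in 1205Lu-R than in 451Lu-R (interval 16.6 to 242), a log2 difference of -5.51 ± 0.47 with an adjusted p of 4.51e-09 (-9.17 without 1205Lu-R corin replicate 2, which held its only counts). The test of the difference in response gave -2.78 ± 1.28 with an adjusted p of 0.0783, and it passed without the filter (0.0373) and without 451Lu-R DMSO replicate 1 (0.0131) or 1205Lu-R corin replicate 2 (0.0184). The 451Lu-R DMSO libraries themselves differed more than 3-fold for CD74, and its log2 fold change there was 3.10 without DMSO replicate 1 and 1.48 without DMSO replicate 2.

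**Figure D2:**
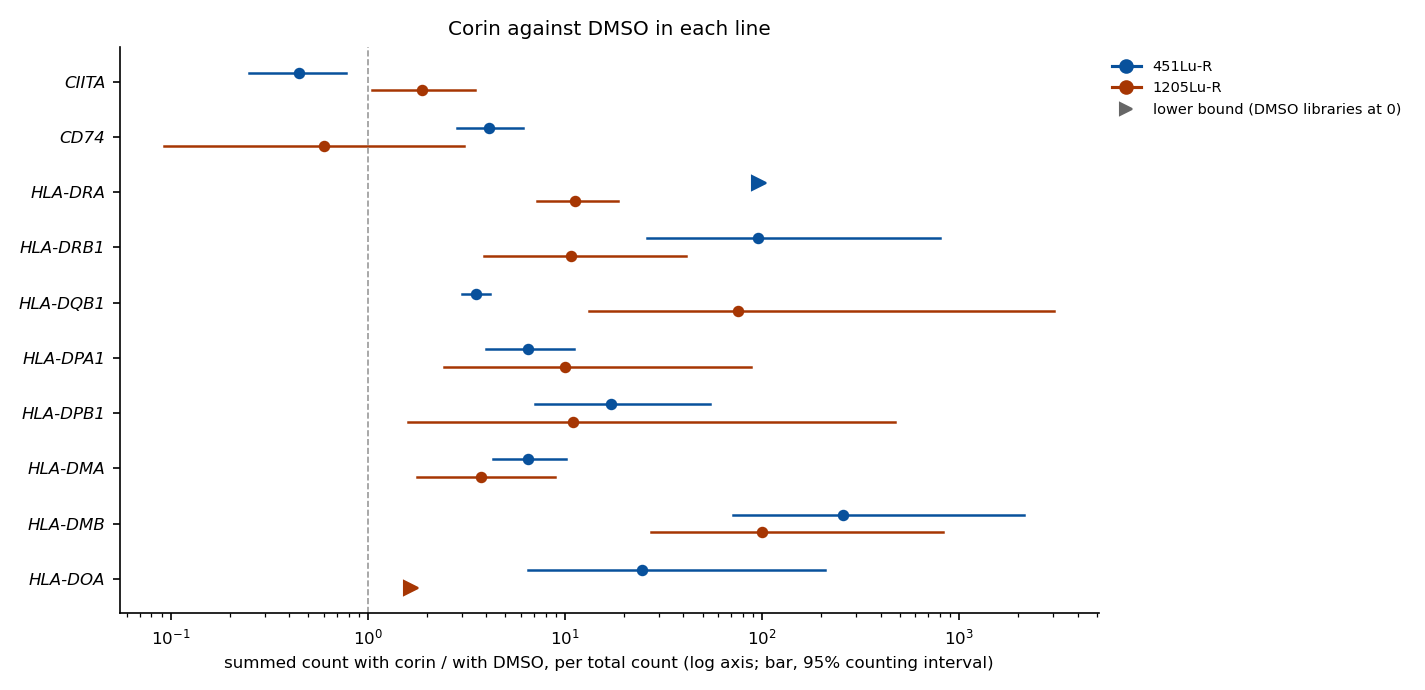
Ratio of the summed counts with corin to those with DMSO, each per total count, for the 10 genes (y axis) in 451Lu-R and 1205Lu-R (x axis, log scale, dashed line at 1). Points are ratios with 95% counting intervals, and triangles are bounds set by a floor of 3 counts where both DMSO libraries were at 0. The triangles lie above the exact 95% lower limits, which are 77.9 for HLA-DRA in 451Lu-R and 0.916, below 1, for HLA-DOA in 1205Lu-R. CIITA lies below 1 in 451Lu-R (0.449) and above it in 1205Lu-R (1.89), and CD74 in 1205Lu-R is the only class II pathway gene whose point lies below 1, with an interval from 0.0931 to 3.08.

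Counted over the 10 members, 9 rose and 1 fell in 451Lu-R at an adjusted p under 0.05, where 41.3% of the 14530 genes tested rose and 38.6% fell. At the stricter limit of a 4-fold change with an adjusted p under 0.001, 8 members rose, against 12.4% of all genes tested. All members passed the filter on low counts there, but 8 of them passed only through their corin libraries. The filter thus favoured a rise for these 8. Those with no DMSO library over its limit had to be higher with corin to be tested at all, while CD74, HLA-DPA1 and HLA-DMA had 1 over it. CIITA, which fell, passed only through its DMSO libraries, so the filter favoured its direction too. The median log2 fold change over all genes tested was 0.03. In 1205Lu-R 6 members were tested, all of them through their corin libraries, and 4 (CD74, HLA-DPA1, HLA-DPB1 and HLA-DOA) were not. Of the 6, 5 rose, 4 of them past the stricter limit, against 40.4% and 11.3% of all genes. None fell, with 0 at an unadjusted p under 0.05 and 0 by DESeq2, against 37.8% of all genes.

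For the difference in response between the lines, 2 members (CIITA and HLA-DQB1) were called higher in 1205Lu-R and 2 (HLA-DRA and HLA-DRB1) lower, against 22.6% and 27.1% of all genes. The other 6 did not pass, with standard errors of 0.75 to 2.26 on the log2 scale for CD74, HLA-DMA, HLA-DMB, HLA-DPA1 and HLA-DPB1, so that differences of several fold were not detectable. With DMSO, only CIITA and HLA-DQB1 passed the filter in the comparison of the lines. Both passed it only through the 451Lu-R libraries, so the filter favoured the direction, and both were lower in 1205Lu-R, CIITA with a log2 difference of -1.20 ± 0.38 (adjusted p 0.00617, but 0.111 with DESeq2, 0.0505 without 451Lu-R DMSO replicate 1 and 0.0958 without 1205Lu-R DMSO replicate 1), against 41.5% of all genes lower and 41% higher. With corin, 8 of the 10 members were lower in 1205Lu-R, against 40.2% of all genes, and none was higher (0 at an unadjusted p under 0.05 and 0 by DESeq2), against 39%. Of these 8, 4 (CD74, HLA-DPA1, HLA-DPB1 and HLA-DOA) passed the filter only through the 451Lu-R corin libraries and could hardly be called anything but lower, while HLA-DRB1, HLA-DQB1, HLA-DMA and HLA-DMB passed it in both lines. The exceptions were HLA-DRA and CIITA, the latter at 0.83 ± 0.41 with an adjusted p of 0.0749 (0.0498 with the library size alone).

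Levels of different genes were set side by side as CPM per kilobase of the transcript that Ensembl marks as canonical. In 451Lu-R with corin the order was HLA-DQB1 (18.8 ± 0.47 CPM per kilobase, SD, n = 2), HLA-DMB (17.4 ± 0.43), HLA-DRA (10.6 ± 0.87), HLA-DMA (7.33 ± 0.50), HLA-DRB1 (7.10 ± 0.62), CD74 (4.08 ± 0.12), HLA-DPA1 (3.31 ± 0.46), HLA-DPB1 (0.982 ± 0.075) and HLA-DOA (0.638 ± 0.17). Of the neighbours in that order, the libraries overlapped only for HLA-DMA and HLA-DRB1. In 1205Lu-R with corin HLA-DRA came first (9.33 ± 0.41), before HLA-DMB (7.16 ± 0.54), HLA-DQB1 (2.29 ± 0.20), HLA-DRB1 (1.66 ± 0.22), HLA-DMA (1.5 ± 0.086) and HLA-DPA1 (0.581 ± 0.22). There HLA-DRB1 overlapped HLA-DMA, and HLA-DPB1, CD74 and HLA-DOA, all at or below 0.132, overlapped one another. By these values, HLA-DRA and HLA-DRB1 were nearer to each other in level in 451Lu-R than in 1205Lu-R. Reads of HLA-DRB1 alleles unlike the reference may have been miscounted to a different extent in each line, and HLA-DRB5 was not included.

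CIITA and the class II genes were set side by side in each library. The corin libraries of 451Lu-R held the highest summed class II levels, and 1 of them the lowest CIITA level of all 8 libraries. The DMSO libraries of 451Lu-R held the highest CIITA levels, beside 13.0 and 14.5 CPM of class II transcripts, although the lower CIITA level with corin in this line did not pass with DESeq2 (adjusted p 0.135). In 1205Lu-R, both were higher in the corin libraries, CIITA at 1.37 and 2.06 CPM beside 30.0 and 30.9 CPM of class II transcripts, against 0.743 and 1.07 CPM beside 2.44 and 1.70 CPM with DMSO. At CIITA levels near 1 CPM, the summed class II level was 1.70 CPM in 1205Lu-R DMSO replicate 2 and 103.3 CPM in 451Lu-R corin replicate 1. These single libraries were paired for their similar CIITA levels, and their groups held only about 20 summed CIITA counts each. The link between CIITA and class II levels was not tested. The 8 libraries fall into separate groups, so no correlation is given.

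**Figure D3:**
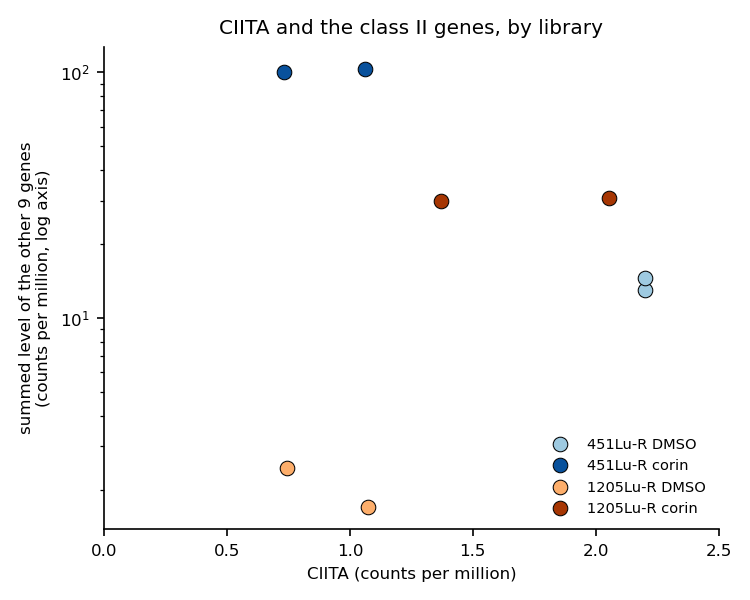
CIITA (x axis, CPM) against the summed level of the 9 other genes (y axis, CPM, log scale), 1 point for each of the 8 libraries. The 451Lu-R corin libraries lie at the top left, with 100.5 and 103.3 CPM of class II transcripts at 0.732 and 1.06 CPM of CIITA, and the 451Lu-R DMSO libraries at the right.

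By rank of Pearson's r of log2 CPM over the 8 libraries among 15959 genes, the genes most like CIITA were ZNF346 (0.95), OR10G3, ADAT3, F12 and FAM217B (0.94). OR10G3 had only 1 to 13 counts per library, and the counts of CIITA were low as well. Among those most like HLA-DRA were FGFR3 (0.999), CSRP2, CD24 and G3BP1 (0.998). FGFR3, for one, went from 0.550 and 0.517 CPM with DMSO to 15.7 and 13.9 CPM under corin in 451Lu-R cells, and from 2.17 and 1.88 to 13.0 and 13.9 CPM in 1205Lu-R cells. These are descriptions of 4 groups of 2 libraries with no test.

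The other class II loci, chains and pseudogenes outside the 10 members, were near 0 with DMSO. Of the 12 listed, 9 were in the table. HLA-DRB5, a further DR beta chain, had 0 and 2 counts with DMSO in 451Lu-R and 1.35 and 1.31 CPM with corin, and was the only one tested (log2 3.71 ± 0.74, adjusted p 0.000131). HLA-DRB5 passed the filter on low counts only through its corin libraries, so the filter favoured its direction. HLA-DQA1, the alpha chain that pairs with HLA-DQB1, was at 0 under DMSO in both lines, while corin libraries held 8 and 9 counts in 451Lu-R cells and 0 and 1 in 1205Lu-R cells. HLA-DQA2 had 5 and 5 counts with corin in 451Lu-R and 0 in the 6 other libraries. HLA-DQB2, HLA-DRB6 and HLA-DPB2 had 0 counts with DMSO in both lines and 2 to 13 summed counts with corin in each line. HLA-DRB9 had 1 summed count in each line and HLA-DPA3 had 0 in all 8 libraries. In both lines the DQ beta chain was therefore far more abundant than any DQ alpha chain counted, with 660 HLA-DQB1 and 17 HLA-DQA1 counts in the 451Lu-R corin group. HLA-DQA1 is highly polymorphic, and reads from alleles unlike the reference may not have been counted.

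The factors that bind the X and Y boxes of class II promoters changed by much less than the class II genes. Of 8, 2 rose, 4 fell and 2 did not pass in 451Lu-R, beside 41.3% of all genes that rose and 38.6% that fell. In 1205Lu-R, 3 rose, 4 fell and 1 did not pass, beside 40.4% and 37.8%. The median log2 fold changes of the 8 were -0.19 and -0.17, beside 0.03 for all genes in each line. RFX5, a DNA-binding subunit of RFX, was at 46.4 and 39.2 CPM with DMSO and 41.3 and 39.2 CPM with corin in 451Lu-R cells. It rose in 1205Lu-R cells by 0.79 ± 0.068 on the log2 scale (adjusted p 6.93e-10), and the difference between the lines passed (0.75 ± 0.11, adjusted p 5.06e-06). RFXANK fell in both lines (-0.76 ± 0.098 and -0.53 ± 0.10), and RFXAP passed in neither. Of the NF-Y subunits, NFYA rose in both lines and NFYB and NFYC fell in both. CREB1 rose in both (0.52 and 0.20), and ATF1 fell in both (-1.21 and -0.50).

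Among 13 genes of the IFN-γ route to CIITA, the test called 6 higher and 6 lower with corin in 451Lu-R cells, and 5 higher and 6 lower in 1205Lu-R cells, with medians of -0.07 in both. IFNG itself was not analysed here. IRF1, which binds the IFN-γ-responsive CIITA promoter, rose on the log2 scale by 1.56 ± 0.12 in 451Lu-R cells and by 0.33 ± 0.062 in 1205Lu-R cells, a difference of -1.26 ± 0.13 (adjusted p 7.62e-08). USF1, which binds the same promoter, fell in both (-1.05 and -0.66).
The 2 receptor chains went opposite ways in both lines, IFNGR1 up by 1.22 and 1.39 and IFNGR2 down, at -0.96 and -2.02. JAK2, a kinase of the receptor, fell in both as well (-1.86 ± 0.073 and -0.55 ± 0.11), more so in 451Lu-R (difference 1.27 ± 0.13, adjusted p 2.79e-08). The feedback inhibitors SOCS1 and SOCS3 rose in both, SOCS1 by 3.76 ± 0.53 and 1.03 ± 0.23. In 451Lu-R, SOCS1 had 4 summed counts with DMSO and 57 with corin. It passed the filter there only through the corin libraries, so the filter favoured its direction.

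**Figure D4:**
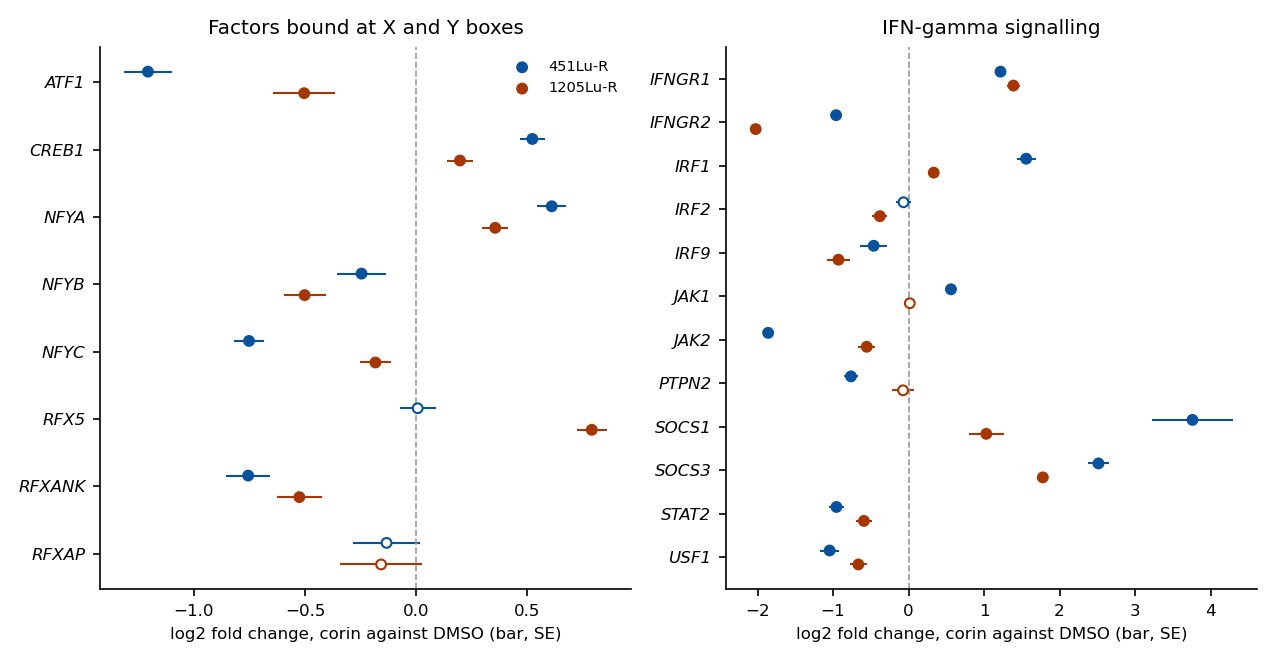
Log2 fold change with corin against DMSO (x axis, bars are standard errors) of the factors bound at class II promoters (left) and of the named genes of IFN-γ signalling (right) in 451Lu-R and 1205Lu-R. Filled points have an edgeR adjusted p under 0.05. All promoter-bound factors lie within -1.21 and 0.79, while SOCS1 reaches 3.76 in 451Lu-R, where it had 4 summed counts with DMSO.

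Of 10 transcriptional regulators listed for the lymphoid control of CIITA, 8 were tested in 451Lu-R, where 4 rose and 3 fell (median 0.44), and 7 in 1205Lu-R, where 3 fell and 4 did not pass (median -0.04). IRF4, a lymphoid and melanocytic transcription factor, went from 74.4 and 76.7 CPM to 5.76 and 4.5 CPM in 451Lu-R (-3.76 ± 0.10, adjusted p 1.83e-17) and had 0 to 3 counts in each 1205Lu-R library. PRDM1, a repressor of CIITA in plasma cells, was higher with corin in 451Lu-R cells (2.49 ± 0.51) and lower in 1205Lu-R cells (-1.46 ± 0.10), and these responses differed by -3.98 ± 0.45 (adjusted p 1.56e-07). In 451Lu-R, PRDM1 had 7 summed counts with DMSO and 40 with corin, and passed the filter only through the corin libraries. TCF4 had the same pair of directions as PRDM1 (2.28 and -0.37), and XBP1 fell in both lines (-0.24 and -0.80). Among 13 coregulators that work with CIITA or at class II promoters, 6 were higher and 6 lower with corin in 451Lu-R cells, against 5 and 7 in 1205Lu-R cells (medians -0.07 and -0.18), beside the same shares of all genes. The acetyltransferase KAT2A fell in both (-2.16 and -1.30), as did the methyltransferase CARM1 (-1.33 and -0.99). The coactivator NCOA3 rose in both (2.11 and 0.49), and the acetyltransferase CREBBP fell in both (-1.20 and -1.01).

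Of 10 genes for endosomal antigen processing, 9 were tested in 451Lu-R, where 6 rose and 1 fell (median 0.69), beside 41.3% of all genes that rose and 38.6% that fell. All 10 were tested in 1205Lu-R, where 7 rose and 2 fell (median 0.58), beside 40.4% and 37.8%. IFI30, the lysosomal thiol reductase GILT, rose by 2.96 ± 0.11 and 1.15 ± 0.15, and its response differed between the lines (-1.84 ± 0.20, adjusted p 6.95e-08). LGMN, an asparaginyl endopeptidase, rose by 1.82 ± 0.043 and 1.54 ± 0.071, and CTSV, a cathepsin, by 1.5 ± 0.11 and 1.57 ± 0.15. Among 14 genes for trafficking and turnover, 6 of the 11 tested in 451Lu-R rose and 3 fell, while of the 12 tested in 1205Lu-R 4 rose and 7 fell (medians 0.19 and -0.23), beside the same shares of all genes. MARCHF8, a ligase that ubiquitinates membrane proteins, was higher with corin in 451Lu-R cells (0.72 ± 0.11) and lower in 1205Lu-R cells (-1.63 ± 0.18), a difference of -2.38 ± 0.22 (adjusted p 6.54e-09). LAMP3, a lysosomal protein of mature dendritic cells, rose in 1205Lu-R by 5.46 ± 0.32 (adjusted p 6.52e-13), and CD83, which hinders class II turnover, rose in both (0.47 and 1.71). In 1205Lu-R, LAMP3 had about 6 summed counts with DMSO and 274 with corin, and passed the filter only through the corin libraries. The tetraspanin CD9 rose in both (1.36 and 0.28), and the lysosomal LAMP2 rose in 451Lu-R (1.19) but fell in 1205Lu-R (-0.26).

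Of 6 genes for the CD74 ligands and co-receptors, 3 were tested, of which 2 fell in 451Lu-R and all 3 in 1205Lu-R (medians -0.42 and -0.55), beside 38.6% and 37.8% of all genes. CD44, the signalling partner of CD74, fell in both lines (-1.22 ± 0.026 and -0.81), as did the ligand DDT (-0.42 and -0.55), while the ligand MIF moved by -0.05 (adjusted p 0.0536) and -0.07 (0.0472). In the MHC class I route, 9 of 12 genes were higher and 3 lower with corin in 451Lu-R cells, against 7 and 5 in 1205Lu-R cells (medians 0.46 and 0.20). All 12 were called in both lines, where 41.3% and 40.4% of all genes rose and 38.6% and 37.8% fell. NLRC5, the class I counterpart of CIITA, went from 1.56 and 1.86 CPM to 17.7 and 17.8 CPM in 451Lu-R (3.47 ± 0.18, adjusted p 6.41e-13). In 1205Lu-R cells it went from 4.16 and 4.43 to 15.3 and 14.2 CPM (1.71 ± 0.15, adjusted p 1.17e-09). NLRC5 thus rose in both lines, including 451Lu-R, where CIITA fell by edgeR but did not pass with DESeq2. The NLRC5 response was larger in 451Lu-R (difference -1.80 ± 0.26, adjusted p 6.67e-06). HLA-F rose in both (1.67 and 1.53), PSMB8 fell in both (-0.91 and -0.90), and PSMB9 rose in 451Lu-R (1.97) but fell in 1205Lu-R (-0.45).

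Markers of leukocytes, the cells best known for class II, were measured in the same libraries. Of 12 listed, 10 were in the table, and their summed level was 6.81 to 9.13 CPM with DMSO and 21.7 to 22.7 CPM under corin in 451Lu-R. The same sum went from 2.30 to 3.53 CPM under DMSO to 12.1 to 12.3 CPM under corin in 1205Lu-R. It moved with the class II genes, and its part in the result was not tested. All 4 markers tested in 451Lu-R rose, beside 41.3% of all genes, as did both tested in 1205Lu-R, beside 40.4%. CSF1R and CD14 in 451Lu-R and ITGAX in 1205Lu-R passed the filter only through the corin libraries, so the filter favoured their direction. ITGAX, an integrin chain, gave most of the sum in 451Lu-R and rose by 1.53 ± 0.16 and 2.89 ± 0.33, and CSF1R, a growth factor receptor, was at 0 under DMSO and held 30 and 31 counts under corin in 451Lu-R cells. PTPRC, which encodes the pan-leukocyte antigen CD45, had 0 to 3 counts in each of the 8 libraries. The B cell marker MS4A1 had 0 or 1 count and CD79A had 0 to 2 counts in each library. Of the melanoma markers, SOX10 and TYR were listed at 0 in all 4 libraries of 1205Lu-R, against means of 758.0 and 454.3 CPM in 451Lu-R with DMSO. AXL, a receptor of dedifferentiated melanoma cells, had means of 961.9 CPM in 1205Lu-R and 0.111 CPM in 451Lu-R with DMSO.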

How the data were processed

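Per the labels and the study's methods, poly(A) RNA was sequenced as paired-end reads, which the authors trimmed with trimmomatic and quantified with salmon against the GENCODE v32 transcriptome; versions are not given in the sources used here. The authors deposited estimated counts per gene for 8 libraries, with no normalization. The 8 libraries with PLX4032 were not analysed here: their tables hold the authors' own log2 fold changes and adjusted p-values, which were not used. The members and lists were chosen with earlier results of these data known.

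Symbols were assigned from GENCODE 44 (34052 of 34228 genes matched). Counts were rounded and tested with edgeR 4.0.16 (R 4.3.3; filterByExpr, TMM, two-sided quasi-likelihood test), with Benjamini-Hochberg adjustment over all genes tested in a comparison; standard errors are the fold change divided by the root of F. A gene passed the filter with about 0.92 to 0.96 CPM in 2 libraries. Counting intervals are exact, at 95%, and like the floors cover counting error only. The labels do not say whether the 2 libraries of a group came from separate cultures, so p-values measure the spread between these libraries, which may be technical. Replicates differed by slightly more than sampling noise (chi-square per degree of freedom 1.34 to 1.40).

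Beyond the members and other class II loci, at most 3 genes per list and corin comparison were named, those with the largest change at an adjusted p under 0.05 and a mean of at least 1 CPM; all factors bound at promoters and IFN-γ genes could be named. Markers at or near 0 were named after their values were seen. Alternatives were DESeq2 1.42.0, RLE size factors, library size alone, no filter on low counts, a minimum mean level of 1 CPM, stricter limits, all 8 libraries in one fit, a replicate block and leaving out each library. The scripts were tested on simulated counts. A few listed genes that entered the counts and medians are not reported here by name.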

Additional observations from a re-analysis of the deposited data

Results flagged for a closer look

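The response to corin differed between the lines for 4 of the 10 members by the edgeR test of the difference itself. Of these, 2 were higher and 2 lower in 1205Lu-R, beside 22.6% and 27.1% of all genes tested. The calls for CIITA and HLA-DRB1 were lost with DESeq2 and when some single libraries were left out. Each difference is given on the log2 scale as the value in 1205Lu-R minus that in 451Lu-R. The value was 2.02 for CIITA, which was called lower in 451Lu-R by edgeR but not by DESeq2, and did not pass in 1205Lu-R. It was -6.70 for HLA-DRA, a value that depends on the prior count because both 451Lu-R DMSO libraries were at 0, and whose ratios were at least 96.3 in 451Lu-R (against a floor of 3 counts; exact lower limit 77.9) and 11.3 (counting interval 7.21 to 18.6) in 1205Lu-R. It was -3.10 for HLA-DRB1, whose ratios were 96.0 (26.2 to 799) and 10.7 (3.90 to 41.2). It was 4.08 for HLA-DQB1, whose ratios were 3.53 (3.0 to 4.17) and 75.9 (13.2 to 3038). Groups of 2 libraries are too small to test a single library for standing apart.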

How the results depend on the processing

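In 451Lu-R the 9 members that rose kept that call in every alternative but for the stricter limit (8), and the 1 that fell (CIITA) was 0 with DESeq2 and at the stricter limit and 0 to 1 when each library was left out. In 1205Lu-R the 5 that rose were 8 with all 8 libraries in one fit, where more members passed the filter, 6 without the filter and with library size alone, 5 to 6 without single libraries and 4 at the stricter limit. For the difference in response, the 2 members called higher were 1 with DESeq2 and at an adjusted p under 0.001 and 1 to 2 without single libraries. The 2 called lower were 1 with DESeq2, at an adjusted p under 0.001 and with the HLA-DRB and HLA-DQB copies pooled, an alternative chosen after seeing the data, and 1 to 3 without single libraries. For the lines with DMSO, 0 members higher became 1 without the filter and with all 8 libraries in one fit and 0 to 1 without single libraries. The 2 lower became 1 with DESeq2 and at the stricter limit, 5 without the filter and with all 8 libraries, and 2 to 4 without single libraries. With corin, 0 higher became 1 with library size alone.

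Some differences in response that had not passed changed sign: HLA-DOA was 0.066 with library size alone, against -0.08, and ranged from -3.23 to 0.77 without single libraries, as HLA-DPA1 did from -0.46 to 3.63, HLA-DPB1 from -1.75 to 1.43 and HLA-DMB from -4.56 to 1.78.

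With the replicate number as a block, the counts of members called were 9 and 1 in 451Lu-R cells, 5 and 0 in 1205Lu-R cells, and 2 and 2 for the difference, and no call changed. The numbers do not pair the libraries: deviations of same-numbered libraries correlated at -0.021 in 451Lu-R cells and at -0.007 in 1205Lu-R cells.

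Low counts set the limits. With DMSO, 8 of the 10 members were under the filter in both lines, and ratios against 1 to 3 counts had wide intervals.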
